A study of Mus musculus with 10 samples.

Results

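Selenoproteins are proteins that carry selenocysteine, a selenium analogue of cysteine, and 10 of their genes were followed here: Selenos, Selenok, Selenom, Selenow, Selenop, Selenot, Gpx1, Gpx3, Gpx4 and Txnrd1. They were matched by gene symbol, and all 10 were found among the 32285 genes of the count tables. The list was chosen by the level of Selenos in cochlear hair cells (cHCs), which sets it apart from the other members, so the values of its members in cHCs against vestibular hair cells (vHCs) are given as a description with no test. The data were single-cell RNA-seq libraries, made with a 3′ droplet kit, from whole cochlear and vestibular sensory organs of wild-type CBA/J mice aged 22 months with no treatment other than aging, and each library pooled 7 to 8 mice. CBA/J is an inbred strain whose inner ear changes appear late in life. Young animals were not analysed here, so no value below is an effect of age. GEO lists 5 libraries per organ, but replicates 1 and 2 of each organ shared 1313 and 1633 cell barcodes with nearly the same counts and were used as 1 sample, which left 4 samples per organ.

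Selenocysteine is inserted at an in-frame UGA codon, which otherwise ends translation, and this needs a stem-loop in the 3′ untranslated region, a dedicated elongation factor and a dedicated tRNA. When selenium is short, messages of some selenoproteins are lost through nonsense-mediated decay, while others are spared. The glutathione peroxidases (Gpx1, Gpx3 and Gpx4) reduce peroxides with glutathione, and Txnrd1 reduces thioredoxin in the cytosol. Selenos, Selenok, Selenom and Selenot reside in the endoplasmic reticulum (ER), Selenow in the cytosol, and Selenop is secreted and carries selenium between tissues. Sensory hair cells of the inner ear are rich in mitochondria and are known to be sensitive to oxidative damage. Only RNA was measured, and a level below, in CPM, is the number of unique molecules (UMIs) of a gene scaled to 1000000 UMIs of a cell class in 1 library.

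The coding sequences of the 10 genes in GENCODE release M21 (mm10) show where the selenocysteine codon lies, and the codons around it are printed 5′ to 3′ with the UGA codon, written TGA in DNA, in capitals. They are shown because this codon is what the 10 genes share, and its position differs among them.
Selenos: tcatctggcggcTGAaactaa
Selenok: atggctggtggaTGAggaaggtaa
Selenom: acctgtggaggaTGAcagttgaatcgc
Selenow: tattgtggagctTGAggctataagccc
Selenot: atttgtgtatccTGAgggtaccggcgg
Gpx1: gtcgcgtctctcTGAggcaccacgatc
Gpx3: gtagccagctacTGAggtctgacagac
Gpx4: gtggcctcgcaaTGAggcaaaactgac
Txnrd1: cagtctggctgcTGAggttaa
Selenop, first UGA: cttcaagccagcTGAtacttgtgtctt

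In Selenos the UGA was codon 189 of 190 (chromosome 7, 66088844 to 66088846, exon 6 of 6), and 1 codon separated it from the stop. Txnrd1 had the same arrangement, with codon 498 of 499 on chromosome 10 (82896037 to 82896039, exon 14 of 14), and in Selenok the UGA was codon 92 of 94. In the other single-UGA genes the codon lay toward the start, at codon 13 of 88 in Selenow, 48 of 145 in Selenom, 49 of 195 in Selenot, 47 of 201 in Gpx1, 73 of 226 in Gpx3 and 73 of 197 in Gpx4. Selenop alone of the 10 had several, with 10 UGA codons from codon 59 to codon 377 of 380. In Selenom, Selenow and Selenot a cysteine codon (tgt) stood 3 codons before the UGA, the arrangement of thioredoxin-like redox motifs. In the annotation 6 processed copies are named for Selenok, 1 for Selenot and 1 for Gpx4, and Txnrd1 overlaps Eid3 on the same strand, so reads could be lost to, or shared with, those copies.

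**Figure D1:**
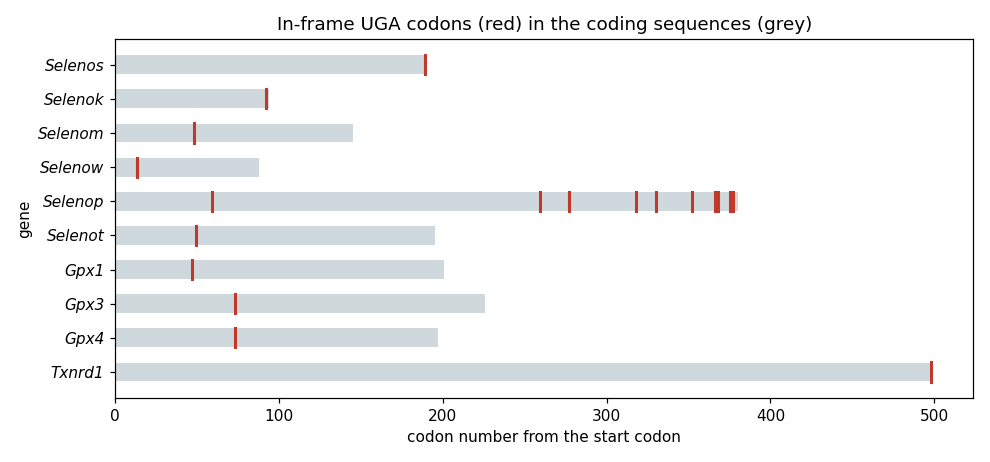
Positions of in-frame UGA codons (red) along the coding sequences (grey) of the 10 genes, in codons counted from the start codon. In Selenos and Txnrd1 the UGA is 1 codon before the stop, and Selenop carries 10.

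After the filters on cells, the cochlear samples held 571 to 5070 cells (7272 in all) and the vestibular samples 867 to 5438 cells (10424 in all). Before the filters, cochlear libraries held 2738036 to 26974948 UMIs and vestibular ones 4150642 to 24104850. Cell classes were named from clusters by fixed markers that hold none of the 10 genes, and 40.6% of cochlear and 34% of vestibular cells stayed unnamed. There were 150 cHCs and 1764 vHCs. Among the cHCs, 80 cells were outer hair cell (OHC)-like, with Slc26a5 at 1651 ± 770 CPM (SD, n = 4), and 37 were inner hair cell (IHC)-like, with Otof at 2168 ± 14.6 and Slc17a8 at 1893 ± 550 (n = 2 libraries with at least 5 such cells) and Slc26a5 at 0. A further 33 cHCs were of neither type. Cochlea replicate 1 held 27 cHCs, all of them OHC-like. In a further 79 cochlear cells (9 to 32 per library, median 13670 UMIs) IHC markers came with markers of supporting cells, and these were set aside. Replicate 3 held most cells in both organs, and 235 vestibular cells with hair cell and fibrocyte markers were also set aside.

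Selenos encodes an ER membrane protein that brings the Vcp ATPase to the ER for the degradation of misfolded proteins. In IHC-like cells it was at 1697 CPM in cochlea replicate 3 (462 UMIs in 29 cells) and 2066 in replicate 4 (158 UMIs in 5 cells), and the 3 cells of replicate 5 gave 1399 from 60 UMIs. In OHC-like cells Selenos was at 141, 144, 219 and 127 in replicates 1, 3, 4 and 5. The lowest IHC-like value was far above the highest OHC-like one, and the means were 1882 ± 261 (SD, n = 2) and 158 ± 41.3 (n = 4). The OHC-like range lay across that of vHCs, which were at 132, 139, 155 and 149 (143.5 ± 10.2, n = 4), and type II-like vHCs stood at 151 to 231 (204 ± 36.1, n = 4).

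Taken as 1 class, cHCs gave uneven levels of Selenos, at 141, 1191, 1562 and 650.5 in replicates 1, 3, 4 and 5 (886 ± 622, n = 4). The share of IHC-like cells among the cHCs of these libraries was 0%, 37.2%, 35.7% and 9.68%. The 2 libraries with the larger shares had the higher levels, and the one of those with the larger share had the lower level. The library with no IHC-like cells had a level within the range of vHCs. The part of cell makeup in the spread between libraries was not tested. Leaving the IHC-like cells out brought the mean level of cHCs to 191. The fitted log2 difference between cHCs and vHCs, a description here, was 2.67, and it was 0.40 without the IHC-like cells and 0.06 with only OHC-like cells, a choice made after seeing the data. The set-aside cells with IHC and supporting cell genes were high in every cochlear library, at 579, 1068, 1073 and 1011, and they included 25 cells of replicate 1. Summed over 7 supporting cell markers, IHC-like cells held 5701 and 6787 CPM, OHC-like cells 2537 to 4020 and the set-aside cells 4514 to 11370. Most of each sum was Fbxo2, at 5661 and 6734, 2457 to 3965, and 3977 to 10920 in the same order. Other markers set the groups apart. Mean Otog was 10.2, 7.81 and 151, mean Slitrk6 8.38, 10.6 and 157, and mean Lfng 0, 7.81 and 59.1. Cochlear supporting cells themselves had Selenos at 96.4 to 155. The part of supporting cell RNA in the Selenos values of hair cells was not tested.

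The share of cells with at least 1 Selenos UMI was also highest in IHC-like cells. All 37 IHC-like cells had 1, which with an exact binomial interval (95%, counting error only) allowed a share down to 90.5%, against 26 of 80 OHC-like cells (32.5%, interval 22.4% to 43.9%) and 749 of 1764 vHCs (42.5%, interval 40.1% to 44.8%). The IHC-like cells were also deeper, with a median of 9958 to 13431 UMIs per library against 2575 to 3622 in OHC-like cells. With each cell thinned to 1000 UMIs the shares were 73% in IHC-like cells, 12.5% in OHC-like cells and 13.3% in vHCs. Granulocytes and erythroid cells are given as the classes with least Selenos. Since they were picked by that level, their shares cannot measure free RNA in droplets, which was not measured. Granulocytes gave 6.23% in the cochlea and 12.2% in the vestibule before thinning, and erythroid cells 13.2% and 5.61%, at median depths of 1275 to 13541 UMIs per library. Thinned to 1000 UMIs like the hair cells, granulocytes gave 3.5% and 3.59%, and erythroid cells 1.02% and 1.4%. Other classes were higher, such as T or NK cells (8.7% and 11.9%) and melanocytes (6.43% and 8.88%).

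**Figure D2:**
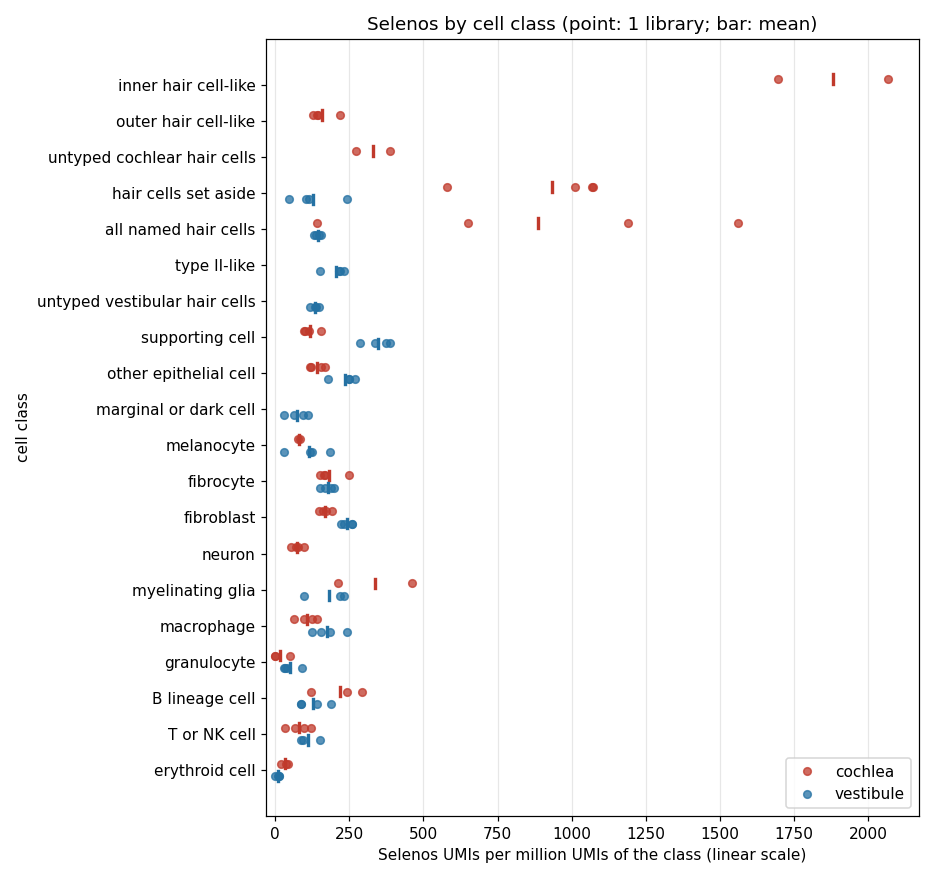
Selenos in CPM of the class (x axis, linear) for each cell class (y axis). Each point is 1 library with at least 5 cells of the class (cochlea red, vestibule blue) and each bar is the mean. IHC-like cells sit at 1697 and 2066, OHC-like cells at 127 to 219, and vestibular supporting cells (286 to 389) lie to the right of cochlear ones (96.4 to 155).

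In 3 classes outside hair cells Selenos was lower in the cochlea than in the vestibule. In supporting cells, the epithelial neighbours of hair cells, it was at 96.4, 115, 155 and 99.5 in the cochlea and at 337, 286, 389 and 373 in the vestibule. The groups did not overlap, and the level was lower in the cochlea by a log2 difference of -1.50 ± 0.21 (SE, edgeR adjusted p = 6.19e-06). The list was chosen by Selenos in cHCs and not by this contrast, though with earlier results of these data known. Summed over 4 fibrocyte markers, cochlear supporting cells held 87.9 to 330 CPM and vestibular ones 379 to 1453. Selenos itself was at 152 to 197 in vestibular fibrocytes and 223 to 260 in vestibular fibroblasts. The part of such RNA in the organ difference of supporting cells was not tested. The same test called 30% of the 5680 genes tested in supporting cells. Fibroblasts were also separated, with 149 to 191 in the cochlea and 223 to 260 in the vestibule (log2 difference -0.82 ± 0.20, edgeR adjusted p = 0.00112), where 26.7% of 6018 genes were called. The fibroblasts of the organs also differed in fibrocyte markers, whose summed level was 792 to 1387 CPM in the cochlea and 24410 to 31850 in the vestibule, close to the 25860 to 33020 of vestibular fibrocytes. Their part in the organ differences of fibroblasts given here and below was not tested. Vestibular fibrocytes had less Selenos than every library of vestibular fibroblasts. Other epithelial cells were at 118 to 169 in the cochlea and 179 to 270 in the vestibule (log2 difference -0.89 ± 0.22, edgeR adjusted p = 0.0302, 6.3% of 4346 genes called), but that call was lost in 10 of the alternatives, among them 5 of the 8 that left out 1 library. Other epithelial cells were named from general epithelial markers. The part of their makeup in the organ differences of this class, here and below, was not tested. In fibrocytes, connective tissue cells named from the same markers in both organs, the organs overlapped (150 to 248 against 152 to 197, log2 difference -0.12 ± 0.23). Their summed fibrocyte markers were 6901 to 14490 CPM in the cochlea and 25860 to 33020 in the vestibule. The part of their makeup in the organ comparisons of fibrocytes, here and below, was not tested.

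In order of mean level within the vestibule, supporting cells (346 ± 45.6) came first for Selenos, followed by fibroblasts (243.5 ± 18.2) and other epithelial cells (237 ± 39.7), whose ranges overlapped each other but not that of supporting cells. In the cochlea, after cHCs, the classes with at least 3 libraries ran from B lineage cells (219 ± 89.1, n = 3) to granulocytes (16.99 ± 29.4, n = 3), with 2 of 3 granulocyte libraries at 0. Over the 26 class means of both organs, the 5 genes other than the members most like Selenos in log2(level + 1) were Rbbp6 (Pearson r = 0.863), Nub1 (0.851), Efcab14 (0.839), Hspb11 (0.838) and Tnks2 (0.836), out of 9927 genes with a mean of at least 10. These points share libraries and depth, so the correlations are a description. Efcab14 was at 436 in cHCs and 55.6 in vHCs, whereas Nub1 was at 150.5 and 145.

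Txnrd1, the cytosolic thioredoxin reductase, was the member with the reverse pattern in hair cells. It was at 70.5, 65.9, 95.2 and 59.1 in cHCs and at 259, 270, 366 and 283 in vHCs, with no overlap. Type II-like vHCs had the highest mean of all groups, at 302 to 497 (359 ± 92.9, n = 4). IHC-like cells were near 0, with 7 UMIs in replicate 3, none in replicate 4 and 1 in replicate 5, whereas OHC-like cells gave 70.5, 144, 365 and 84.8. The value of 365 rests on 10 UMIs in 8 cells. The fitted log2 difference between cHCs and vHCs was -2.02 and stayed at -1.14 with OHC-like cells alone in the cochlea. In vHCs Txnrd1 was 5.11 times the median class of the organ, and vHCs stood first of 13 classes with at least 3 libraries.

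Supporting cells also had less Txnrd1 in the cochlea. The choice of the list rested on Selenos in cHCs, but it was made with earlier results of these data known. The values were 74.1, 35.1, 72.1 and 52.7 in the cochlea and 75.7, 130, 176 and 130 in the vestibule. The lowest vestibular library lay just above the highest cochlear one. The log2 difference was -1.21 ± 0.27 (edgeR adjusted p = 0.00141). In the other 5 classes where Txnrd1 could be tested it was not called, with log2 differences between -0.40 and 0.71.

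Selenow, a small cytosolic redox protein best known from muscle and brain, had its highest levels in hair cells of both organs. It was at 2014, 3554, 3609 and 3869 in cHCs and at 2240, 2231, 2421 and 2039 in vHCs. Over classes with at least 3 libraries hair cells ranked first in both organs, at 7.16 times the median class in the cochlea and 4.98 times in the vestibule. IHC-like cells (3618 and 3727) and OHC-like cells (2014 to 3354) were both high. The next classes were neurons in the cochlea (1003 ± 174) and melanocytes in the vestibule (726 ± 204). The organs overlapped, since cochlea replicate 1, whose cHCs were all OHC-like, lay below the vestibular values. As a description, the fitted log2 difference was 0.57, and 0.33 with only OHC-like cells in the cochlea, a choice made after seeing the data. In other epithelial cells Selenow was higher in the cochlea, at 876 to 1096 against 399 to 551 (log2 difference 0.99 ± 0.22, edgeR adjusted p = 0.017), a call lost in 7 alternatives.

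Gpx4, which reduces lipid hydroperoxides in membranes and protects cells from ferroptosis, was present in every class. Over classes with at least 3 libraries its means ran from 255 (B lineage cells) to 1776 (other epithelial cells) in the cochlea and from 272 (B lineage cells) to 1757 (melanocytes) in the vestibule. Hair cells stood in the middle, with 763 ± 145 in cHCs and 716 ± 84.5 in vHCs, and these overlapped. In supporting cells it was at 1104, 1886, 1802 and 1657 in the cochlea and at 909, 1231, 1148 and 1006 in the vestibule. Here 1 cochlear library lay inside the vestibular range, and the log2 difference of 0.63 ± 0.23 passed with an edgeR adjusted p of 0.0425. That call was lost without any one of 7 libraries (adjusted p = 0.0529 to 0.173). In fibroblasts the fit gave -0.56 ± 0.21 (edgeR adjusted p = 0.0454), although the levels overlapped, at 390 to 496 in the cochlea and 479 to 612 in the vestibule. The ratio of mean levels, cochlea over vestibule and before TMM normalization, was 0.854. On that scale Selenok in fibroblasts was fully separated as higher in the cochlea (ratio 1.18), but its fit was -0.11. The part of normalization in the Gpx4 call was not tested. This call too was lost in 9 alternatives.

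Gpx1, the abundant cytosolic peroxidase, was highest in blood and immune cells in both organs. Erythroid cells were at 2643 ± 694 (n = 3) in the cochlea and 3780 ± 444 (n = 4) in the vestibule, followed in both organs by macrophages (760 ± 158 and 1091 ± 435) and granulocytes (631 ± 388 and 920 ± 369). Hair cells were low, at 115 ± 58.2 in cHCs and 66.9 ± 10.3 in vHCs. The highest cHC value of Gpx1, 201 in cochlea replicate 1, came in the library whose cHCs also held most erythroid marker UMIs among the cHCs, with a summed level of 5980 CPM against 0 to 139 in the other 3. The part of those UMIs in the Gpx1 value was not tested.

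Gpx3, the secreted plasma peroxidase, gave the 2 largest log2 differences among the 74 tests of members outside hair cells. In fibroblasts it was at 74.7, 28.02, 0 and 22.3 in the cochlea and 634, 336, 170 and 167 in the vestibule. In fibrocytes it was at 0, 32.1, 2.41 and 2.30 in the cochlea and 482, 355, 162 and 221 in the vestibule. Neither pair overlapped, and the log2 differences were -3.85 ± 0.40 (edgeR adjusted p = 2.9e-10) and -4.53 ± 0.48 (edgeR adjusted p = 3.56e-08). In fibrocytes the test called 27.6% of 4809 genes. Both calls held in every alternative that could be fitted, but the size in fibrocytes did not, at -7.21 without cochlea replicate 3 and -2.02 at resolution 2. The fibroblast values go with the fibrocyte markers given above, and vestibular fibroblasts and fibrocytes overlapped in Gpx3. The cochlear fibroblast values rest on 0 to 26 UMIs per library and the fibrocyte values on 0 to 30. In the cochlea the level was highest in other epithelial cells, at 1541 ± 231, and no other class with at least 3 libraries passed 59.1. Melanocytes, with 2 cochlear libraries, gave 280 and 572 there and 207 to 423 in the vestibule. In the vestibule marginal or dark cells, which secrete the potassium-rich endolymph, were at 1740 ± 674, and other epithelial cells varied from 163 to 2037 between libraries. In cHCs, vHCs and supporting cells of either organ the mean was at most 21.7, and Gpx3 was under the filter on low counts in hair cells and supporting cells.

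**Figure D3:**
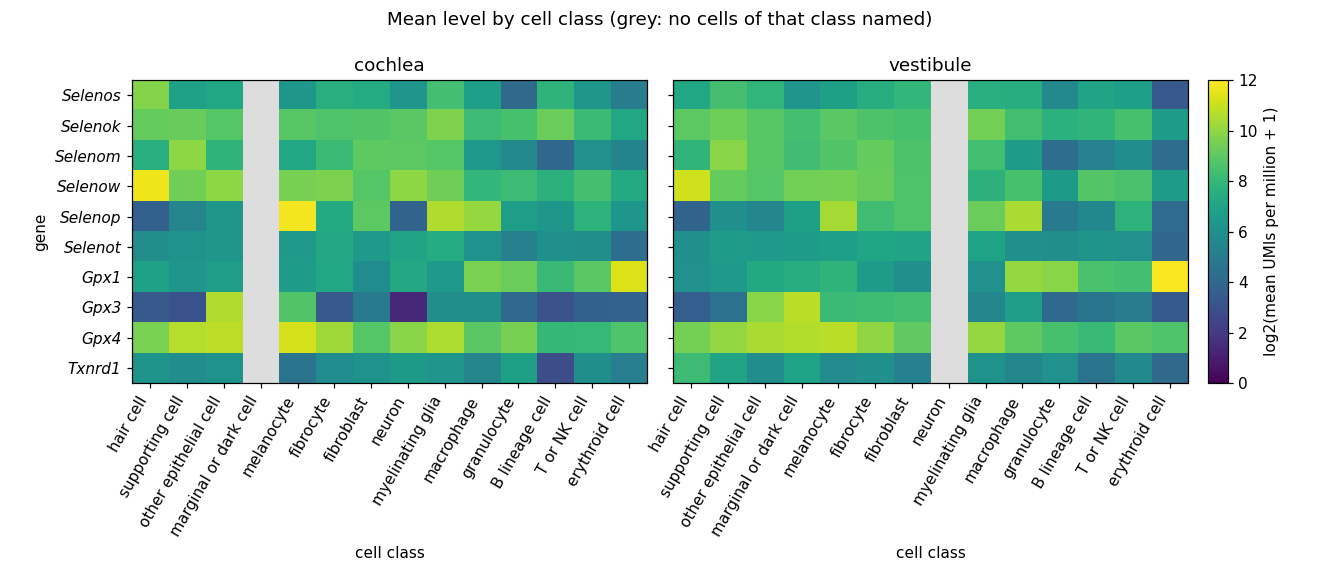
Mean level of the 10 genes (rows) in each cell class (columns) of the cochlea (left) and vestibule (right), as log2(mean CPM + 1). Selenow stands out in hair cells of both organs, Selenos in cochlear hair cells (886) against vestibular ones (143.5), Gpx1 in erythroid cells, and Gpx3 in epithelial and in marginal or dark cells.

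Selenop, the selenium carrier that the liver secretes into plasma, was found mainly outside the hair cells. Macrophages were the highest class with at least 3 libraries in both organs, at 696, 1252, 1027 and 1461 in the cochlea and 2693, 870, 1122 and 962 in the vestibule, and 2 cochlear libraries with melanocytes gave 3117 and 3888. The vestibular value of 2693 came from 10 macrophages. Vestibular melanocytes were at 1352 ± 332, and fibroblasts at 497 ± 169 in the cochlea and 416 ± 97.6 in the vestibule. Hair cells were the lowest class with at least 3 libraries in both organs, at 12.1 ± 9.55 and 13.6 ± 5.67, and 1 cochlear library had no UMI, which with its class total allows up to 30.2 CPM. Fibrocytes had less Selenop in the cochlea, at 110 to 212 against 241 to 381 (log2 difference -1.09 ± 0.27, edgeR adjusted p = 0.00255). With clusters drawn at the finer resolution of 2 this difference turned to 0.34 (edgeR adjusted p = 0.699).

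Selenom, a thioredoxin-like protein of the ER lumen, had its highest class means in supporting cells but was not confined to them. The next classes with at least 3 libraries were fibroblasts in the cochlea (517) and fibrocytes in the vestibule (577). It was at 593, 1040, 1203 and 1144 in cochlear and at 915.5, 994, 987 and 860 in vestibular supporting cells, which overlapped, and these were the first of 11 and of 13 classes with at least 3 libraries. Among hair cells it separated the 2 cochlear types, with 316 and 366 in IHC-like cells and 30.2 to 99.96 in OHC-like cells. Type II-like vHCs were at 332 to 426. In fibrocytes Selenom was lower in the cochlea, at 199 to 388 against 466 to 692 (log2 difference -1.13 ± 0.26, edgeR adjusted p = 0.00162), which was not called at resolution 2 (-0.94, edgeR adjusted p = 0.15).

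Selenok, an ER membrane protein that serves the palmitoylation of ER proteins, had the smallest ratio of highest to lowest class mean among the ER members (4.12 in the cochlea and 7.23 in the vestibule). Over classes with at least 3 libraries its means ran from 146 to 602 in the cochlea and from 96.8 to 700 in the vestibule, both with erythroid cells lowest. The vHC libraries lay between 488 and 505, and the cHC libraries between 443 and 705. No organ difference was called in the 9 classes tested, with log2 differences from -0.35 to 1.03. Selenot, another thioredoxin-like ER protein, was low throughout, with means from 19.1 to 149 in the cochlea and from 14.5 to 134 in the vestibule over the same classes, and with fibrocytes first in both. In fibroblasts it was lower in the cochlea, at 74.7 to 102 against 110 to 142 (log2 difference -0.80 ± 0.21, edgeR adjusted p = 0.00297). Leaving out cochlea replicate 3 lost that call (edgeR adjusted p = 0.0688).

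**Figure D4:**
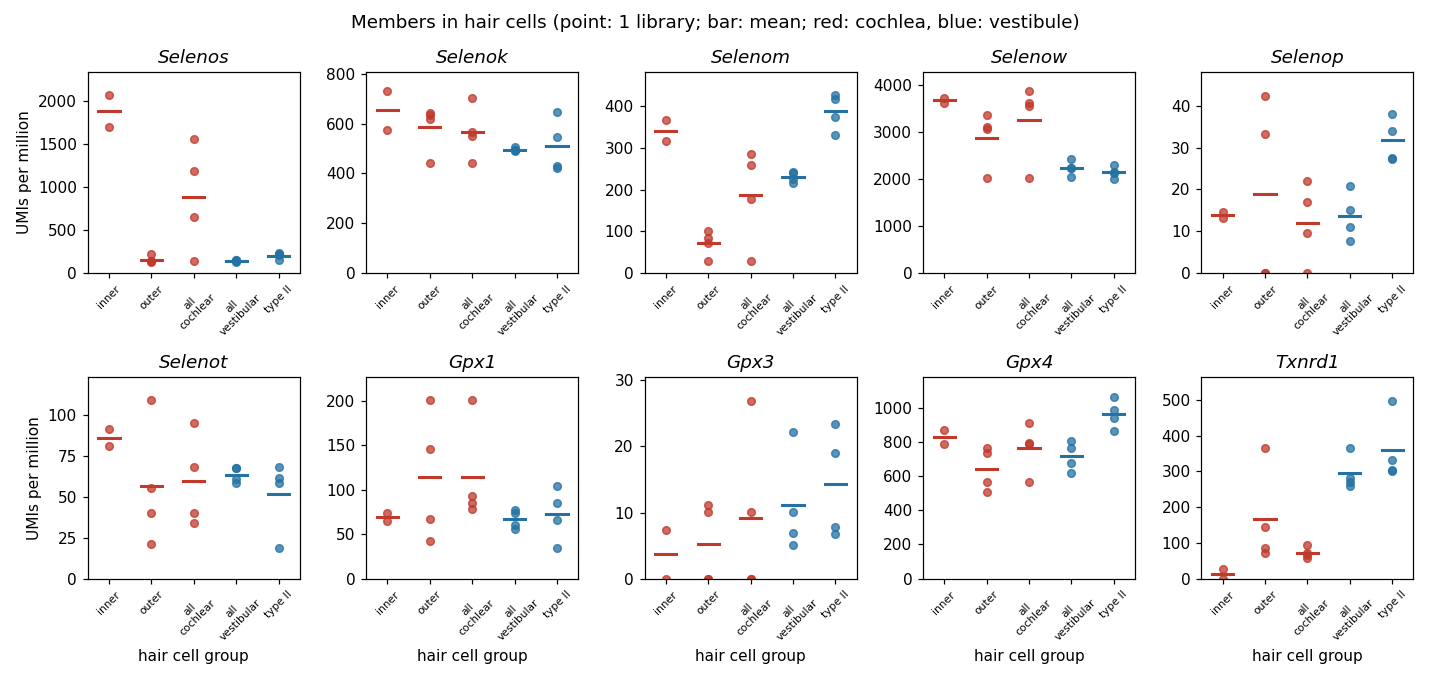
CPM (y axes, linear, one scale per gene) of the 10 genes in IHC-like, OHC-like and all cochlear hair cells (red) and in all and type II-like vestibular hair cells (blue). Each point is 1 library with at least 5 cells and each bar is the mean. IHC-like cells are high in Selenos (1697 and 2066) and low in Txnrd1 (25.7 and 0), and vestibular groups are high in Txnrd1 (259 to 497).

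Of the 10 genes, 8 passed the filter on low counts in hair cells, and Selenop and Gpx3 did not. As a description, 2 of the 8 lay past the threshold of the fit, Selenos higher in cHCs and Txnrd1 higher in vHCs, beside 27% of all 7699 genes tested (10.9% higher in cHCs and 16.1% higher in vHCs). The choice of the members used that contrast, so nothing is read from the count. The median log2 difference of the 8 was 0.17, against -0.08 over all genes tested. Over the other 9 classes with at least 3 libraries per organ, 74 tests of members were possible and 12 were called, 2 higher in the cochlea and 10 higher in the vestibule. By class the calls were 3 of 9 in supporting cells, 4 of 10 in fibroblasts, 3 of 10 in fibrocytes and 2 of 10 in other epithelial cells, against 30%, 26.7%, 27.6% and 6.3% of all genes. By direction, 13.2% of all genes were higher in the cochlea and 16.9% in the vestibule in supporting cells, 13.5% and 13.2% in fibroblasts, 14.5% and 13.1% in fibrocytes, and 3.29% and 3.01% in other epithelial cells. The first 3 shares are near those of all genes. In erythroid cells (7.27% of 3729 genes called), B lineage cells (1.65%), macrophages (0.535%), granulocytes (0.195%) and T or NK cells (0%) no member was called in 35 tests, of which 3 had an unadjusted p under 0.05, and DESeq2 called 0 of them. In T or NK cells no gene was called by edgeR or by DESeq2, and 29 of 894 genes had an unadjusted p under 0.05.

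**Figure D5:**
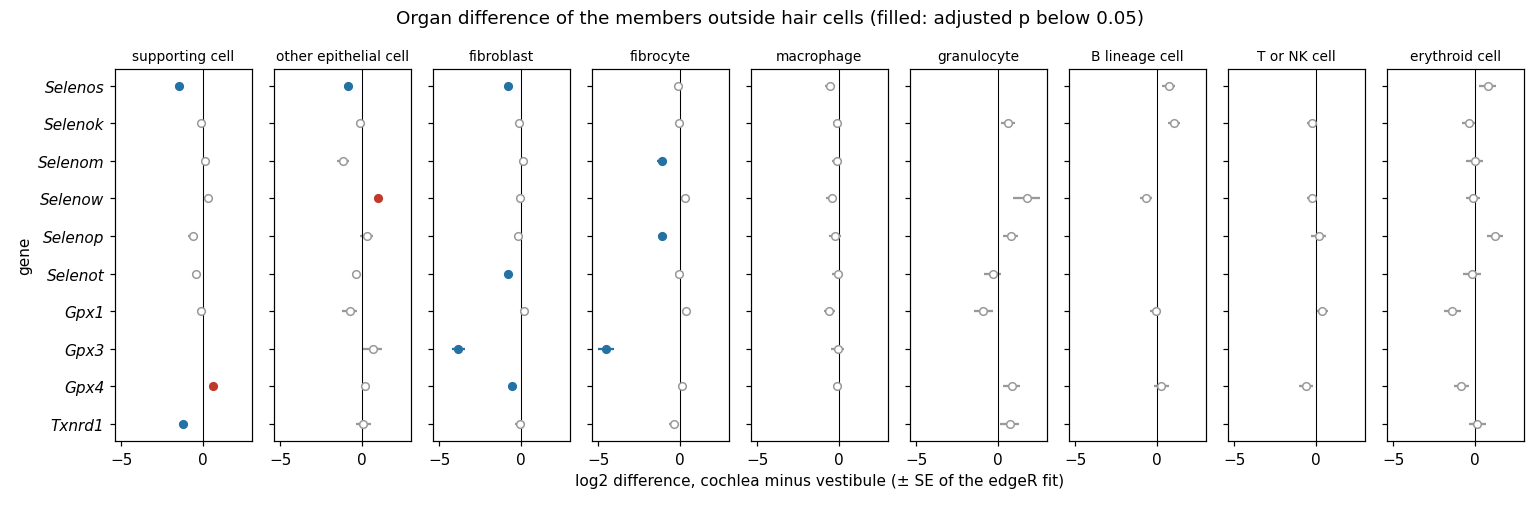
Log2 difference between cochlea and vestibule (x axes, positive is higher in the cochlea, error bars are the SE of the edgeR fit) for the members tested in 9 classes outside hair cells. Filled points have an adjusted p below 0.05. Selenos lies at -1.50 in supporting cells, and Gpx3 lies at -3.85 in fibroblasts and -4.53 in fibrocytes.

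A further 14 selenoprotein genes and the genes that handle selenium were fixed as lists beside the members. Gpx2, a peroxidase best known from gut epithelium, had the highest level of the 14 over all cells, and Selenof, an ER protein linked to glycoprotein folding, the next. Of the 14, 7 were tested in hair cells and 3 called, beside 27% of all genes there. Gpx2 was higher in cHCs (1689 ± 364 against 828 ± 156, log2 difference 1.06 ± 0.25, edgeR adjusted p = 0.00384) but was not called with only OHC-like cells in the cochlea (0.43, edgeR adjusted p = 0.24), whereas it was called with the IHC-like cells left out (0.81, edgeR adjusted p = 0.043). Also higher in cHCs was Selenoi, a phospholipid-synthesizing enzyme (0.96 ± 0.21, edgeR adjusted p = 0.002). Selenoh, a nucleolar redox protein, was lower in cHCs (-0.95 ± 0.34, edgeR adjusted p = 0.0452), a call lost in 12 of 19 alternatives. The median over the 7 was 0.22. In supporting cells 6 were tested and 4 called, beside 30% of all genes. Gpx2 (2806 ± 173 against 992 ± 163, log2 difference 1.54), Selenoi (1.76) and Sephs2 (0.97), which makes the selenium donor for selenocysteine, were higher in the cochlea, and Selenof (-0.61) was higher in the vestibule, though of 17 alternatives 7 lost that call and 1 reversed it (0.078). Gpx2 was also higher in cochlear other epithelial cells (1.68), and Selenoh was higher in cochlear fibroblasts (0.74) but lower in cochlear fibrocytes (-0.97), calls lost in 10 and 7 of 16 alternatives.

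Of the 9 genes for selenium uptake and selenocysteine synthesis, Lrp2 and Trnau1ap had the highest levels over all cells, and 7 were tested in hair cells. Only Lrp8, a receptor for Selenop, was called there, and it was higher in cHCs (111 ± 38.4 against 53.9 ± 9.99, log2 difference 0.96 ± 0.27, edgeR adjusted p = 0.0118). Without the IHC-like cells that call was lost (0.81, edgeR adjusted p = 0.121), and with only OHC-like cells it held (1.15, edgeR adjusted p = 0.018). The median of the 7 was -0.23. Lrp2, the other Selenop receptor, was higher in cochlear other epithelial cells (3.54) and lower in cochlear fibroblasts (-1.97). Eefsec, the elongation factor for selenocysteine, was lower in the cochlea in fibroblasts (-1.03) and fibrocytes (-1.44), and Scly, which frees selenium from selenocysteine, was higher in cochlear fibrocytes (1.31). In supporting cells edgeR called 0 of 3, with 1 at an unadjusted p under 0.05 and 0 called by DESeq2.

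Genes that work with Selenos in ER-associated degradation did not all follow it. In hair cells 3 of 15 were called, beside 27% of all genes, and Sel1l (0.85), Ube2g2 (1.25) and Ufd1 (1.10), a partner of Vcp, were each higher in cHCs. With only OHC-like cells in the cochlea, Sel1l (0.82, edgeR adjusted p = 0.0845) and Ufd1 (0.61, edgeR adjusted p = 0.465) were not called, nor were they with the IHC-like cells left out (0.65 and 0.80, edgeR adjusted p = 0.197 and 0.222). The levels of Sel1l and Ufd1 in IHC-like cells (87.8 and 45.3) did not stand above those of all cHCs (105 and 47.5), unlike Selenos. The median over the 15 was 0.52. In supporting cells, where Selenos was lower in the cochlea, the chaperone Hspa5 (-1.69 ± 0.20, edgeR adjusted p = 7.09e-07) and Os9 (-0.79) were lower too, and Herpud1 (0.73) was higher. In fibroblasts Derl1 (-0.68), Herpud1 (-1.18), Hspa5 (-0.56) and Syvn1 (-1.16) were lower in the cochlea, and in fibrocytes Hspa5 (-1.02) and Os9 (-0.76). The Os9 call in fibrocytes was lost in 12 of 17 alternatives, those of Derl1 and Hspa5 in fibroblasts in 7 of 16 each, and that of Herpud1 in supporting cells in 6 of 17. Hspa5 and Vcp had the highest levels of this list over all cells.

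Among 18 genes of the thioredoxin, peroxiredoxin and glutathione systems, 15 were tested in hair cells and 6 called, beside 27% of all genes. Prdx6 (2.12), Nfe2l2 (1.60), Txnip (1.25), Prdx5 (1.07) and Txn1 (1.06), the substrate of Txnrd1 and named here after its values were seen, were higher in cHCs, and Gclc (-1.45), which starts glutathione synthesis, was lower. Gclc was not called with only OHC-like cells in the cochlea (-1.16, edgeR adjusted p = 0.0806) but was with the IHC-like cells left out (-1.36, edgeR adjusted p = 0.0246). With mixed clusters kept Txnip was not called (0.39, edgeR adjusted p = 0.185). In supporting cells, with 7 of 14 called beside 30% of all genes, Prdx6 (1.32) and Txn1 (1.12) were again higher in the cochlea and Gclc (-1.39) lower, but Nfe2l2 (-2.51) and Txnip (-2.58) were lower, as were Prdx1 (-1.08) and Prdx4 (-1.15). In supporting cells, then, Txn1 was called higher and Txnrd1 lower in the cochlea. In hair cells Txnrd1 is only described and Txn1 was named after its values were seen, so nothing is read from the pair there. In fibrocytes Glrx (1.68), Nfe2l2 (0.81) and Txn2 (0.78) were higher in the cochlea, and Txnip (-4.29), Prdx4 (-1.64) and Prdx6 (-1.13) lower. Txn1 was higher in cochlear fibroblasts (0.88), Prdx4 (-1.62) and Gclm (-1.11) were lower in cochlear other epithelial cells, and in erythroid cells Prdx5 (2.25) was higher and Prdx2 (-1.68) lower in the cochlea. The Gclm call was kept in 2 of 17 alternatives, the Prdx4 call in other epithelial cells was lost in 7 of 16, and the Prdx2 call in 8 of 15. At resolution 2 Prdx4 (-0.69) and Prdx6 (-0.36) were not called in fibrocytes, and with mixed clusters kept Prdx1 was not called in supporting cells (-0.24). Prdx1 and Prdx2 had the highest levels of this list over all cells.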

How the data were processed

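The authors counted UMIs per gene and cell and deposited raw count matrices, 1 per library. The labels name Cell Ranger 6.1.2, Seurat and build mm10, and the file headers give version 5.0.1 for replicates 1 and 2 and version 6.1.2 for the others. The 10 genes and all lists were chosen with earlier results of these data known. Barcodes were kept from 200 genes and 1000 UMIs upward if mitochondrial UMIs stayed under 25%, and clustered per organ (Seurat 5.3.0, 2000 variable genes, 30 components, resolution 1). A cluster was named where at least 3 markers of 1 class were enriched, at least 2 more than of the next class. Clusters with leading genes of another class stayed unnamed, and no doublet caller was run. UMIs were summed per library and class (at least 5 cells), and the organs were compared with edgeR 4.0.16 (quasi-likelihood test, TMM, filterByExpr, Benjamini-Hochberg over all genes tested, 0.05). An SE is the log2 difference over the root of its F statistic. A level in CPM carries no TMM factor and a log2 difference does, so they can disagree within a class. Replicates 1 and 2 differed by less than sampling noise, and their mean was 1 sample. Genes named beside the members were those past 0.05, at most 4 per direction, list and class by size, the 2 highest in level per list and the 5 most like Selenos. A result that this rule would name is not reported here. The alternatives were RLE factors, no filter, DESeq2 1.42.0, a replicate block, each library left out, replicates 3, 4 and 5 alone, at least 20 cells, resolution 2 and mixed clusters kept. Same-numbered libraries came from pooled mice. Their deviations correlated above 0.1 in all pairs only in erythroid cells (0.193 to 0.22, 3 pairs). In supporting cells the correlations were 0.332, 0.222, 0.244 and 0.063, and in other epithelial cells 0.177, 0.16, 0.22 and 0.004. Hair cells gave 0.045 to 0.117, and macrophages, granulocytes and B lineage cells each had a negative pair. The main fit left pairing out in every class, and the replicate block took it in. A library is a pool, so p-values measure the spread between pools, and intervals cover counting error only.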

Additional observations from a re-analysis of the deposited data

Results flagged for a closer look

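Of 240 groups of 4 libraries, 20 held 1 library farther from the others than Dixon's 95% critical value allows, where chance would flag about 1 in 20 groups. No explanation was weighed. Replicate 1, the library with fewest cells in both organs, was the stray one in most of them. In the cochlea its values were low for Selenos in the set-aside hair cells (579 CPM), for Selenok in fibrocytes (303.5) and OHC-like cells (443), and for Selenow in fibroblasts (299) and cHCs (2014). They were high there for Selenop in other epithelial cells (186) and for Gpx1 in cHCs (201) and macrophages (996). In the vestibule, replicate 1 was high for Selenos in granulocytes (92.2), Selenop in macrophages (2693) and Gpx1 in marginal or dark cells (374), and low for Gpx1 in granulocytes (369). Selenop was at 0 in replicate 1 in vestibular B lineage cells and in the 7 granulocytes of that library.

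Replicate 3 of the cochlea, the deepest library, was the high one for Gpx3 in T or NK cells (48.5), fibrocytes (32.1) and neurons (6.45). Replicate 5 of the vestibule was low for Selenok in fibrocytes (376). Replicate 4 was low for Txnrd1 in the set-aside cochlear hair cells (16.1) and high for Txnrd1 in type II-like vHCs (497).

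For the members below the organs were fully separated in opposite directions in different classes, and the difference between the classes was not tested. The share of all genes with such a pattern was not counted, so it is not read as a trait of the members. Selenos was higher in the cochlea in erythroid cells (log2 difference 0.78) and higher in the vestibule in fibroblasts (-0.82), other epithelial cells (-0.89) and supporting cells (-1.50). Txnrd1 was higher in the vestibule in hair cells (-2.02) and supporting cells (-1.21), with 0.15 in erythroid cells. Selenop stood at 1.22 in erythroid cells and 0.77 in granulocytes, against -1.09 in fibrocytes. Selenow stood at 0.99 in other epithelial cells and -0.69 in B lineage cells. Selenom was at 37.7 to 47.7 CPM in cochlear and 0 to 27.1 in vestibular erythroid cells, where the fitted difference was -0.02, and lower in cochlear fibrocytes (-1.13). In erythroid cells the ratio of mean levels before TMM normalization, cochlea over vestibule, was 2.28 for Selenom and 2.05 for Txnrd1, unlike their fitted values. The erythroid, granulocyte and B lineage values did not pass the edgeR test.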

How the results depend on the processing

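Of the 12 member calls outside hair cells, 5 kept their direction and their call in every alternative that could be fitted: Selenos in supporting cells and fibroblasts, Txnrd1 in supporting cells, and Gpx3 in fibroblasts and fibrocytes. Over the 12, 162 of 200 alternative values kept the call, 37 lost it and 1 reversed, Selenop in fibrocytes at resolution 2 (0.34). Among 53 calls of other listed genes, 744 of 900 kept the call, 154 lost it and 2 reversed with mixed clusters kept, Gclm in other epithelial cells (0.003) and Selenof in supporting cells (0.078). The causes were not tested. The 12 member calls became 5 at resolution 2, where fibroblasts could not be fitted, 7 without replicate 3 of both organs (chosen after seeing the data), and 7 to 14 when 1 library was left out.

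The Selenos level of cHCs was 191 without IHC-like cells and 661 to 1134 when 1 library was left out. Leaving out 1 library gave 140 to 147.5 in vHCs, 1697 to 2066 in IHC-like cells, 137.5 to 168 in OHC-like cells, 104 to 123 in cochlear and 332 to 366 in vestibular supporting cells. Thinned to 1000 UMIs, the levels were 1510 in IHC-like cells, 105 in OHC-like cells and 291 in vestibular supporting cells, which stood at 276 with mixed clusters kept. The thinned shares of cells with a Selenos UMI were 73% in IHC-like cells, 12.5% in OHC-like cells and 13.3% in vHCs.

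Counts of genes called moved by over 1.5 times as follows. With no filter beyond 1 UMI they were 107 in B lineage cells, 17 in T or NK cells, 526 in erythroid cells, 2069 in fibrocytes, 336 in granulocytes, 3181 in hair cells, 178 in macrophages, 862 in other epithelial cells and 3004 in supporting cells. Without replicate 3 of both organs they were 0 in B lineage cells, 3 in T or NK cells, 13 in erythroid cells, 924 in fibroblasts, 878 in fibrocytes, 0 in granulocytes, 1192 in hair cells, 7 in macrophages and 1041 in supporting cells. With replicates 3, 4 and 5 only they were 49 in B lineage cells, 861 in erythroid cells, 76 in granulocytes and 69 in macrophages. With mixed clusters kept they were 3232 in hair cells, 1712 in other epithelial cells and 3528 in supporting cells. DESeq2 called 17 in B lineage cells, 135 in erythroid cells and 9 in granulocytes. RLE factors gave 16 in granulocytes and 9 in macrophages. Resolution 2 gave 135 in fibrocytes and 7 in macrophages, and at least 20 cells gave 39 in macrophages. Leaving out 1 library, given for all classes whether or not the count moved that far, gave 0 to 104 genes in B lineage cells, 0 to 4 in T or NK cells, 37 to 849 in erythroid cells, 1092 to 1882 in fibroblasts, 1127 to 1640 in fibrocytes, 0 to 84 in granulocytes, 1623 to 2671 in hair cells, 1 to 65 in macrophages, 182 to 458 in other epithelial cells and 1342 to 2209 in supporting cells.

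The replicate block gave 14 member calls in place of 12, and 12 genes in granulocytes in place of 5. In erythroid cells, the class where all pairs correlated above 0.1, the block gave 375 genes in place of 271. Of these, 48% in place of 65.7% were higher in the cochlea, against 85.6% with RLE factors and 87.4% with DESeq2. RLE factors moved the median log2 difference there from 0.03 to 0.25. At least 20 cells could not be fitted for B lineage, erythroid, granulocyte and T or NK cells. The IHC-like values rest on 34 cells in 2 libraries.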
